A study of Mus musculus with 8 samples.

Results

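The aminoacyl-tRNA synthetases are the enzymes that load each tRNA with its amino acid, so that the ribosome can read the code. Of 39175 genes in the deposited tables, 35 were taken by name as synthetases, from a list of 36 names in which Mars1 had no row because the tables carry the same gene as Mars. They comprise 20 genes of the cytosolic set and 15 of the mitochondrial set. Gars and Kars, counted here as cytosolic, encode both the cytosolic and the mitochondrial enzyme for their amino acids. All 35 were tested by the authors in both genotypes.

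Cytosolic synthetases charge the tRNAs used to translate nuclear messages, and the mitochondrial enzymes, encoded in the nucleus and imported, charge the tRNAs of the mitochondrial genome. The enzymes fall into class I and class II, which differ in the fold of the catalytic domain. In mammals 8 of the cytosolic genes encode enzymes held with 3 scaffold proteins in the multi-synthetase complex, while the other cytosolic enzymes are free or in smaller assemblies. Several cytosolic synthetase genes are known targets of ATF4, the transcription factor of the amino acid and stress response.

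The cells were mouse embryonic fibroblasts on the C57BL/6J background, and both genotypes lacked p53. The genotype called p53KO was p53-/-, and the genotype called p53CryKO was p53-/-Cry1-/-Cry2-/-, which also lacks the clock repressors CRY1 and CRY2. Each genotype was left untreated or received 40 J/m2 of germicidal UV (254 nm) and was harvested 16 h later. The 8 samples form 4 groups of 2 biological replicates, and the labels do not say whether those came from separate animals.

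Poly(A) RNA was sequenced, and the authors deposited for each gene and group 1 pooled FPKM (fragments per kilobase of transcript, after the authors' scaling). That scaling did not hold the summed FPKM equal between untreated and UV groups. No value per replicate, no SD and no depth per sample can therefore be given. A gene was called where its q for UV against untreated cells of the same genotype was at most 0.05, as given in the authors' deposited table. Log2 fold changes were computed from the FPKM, and the error beside each is the standard error implied by the authors' test statistic. The genotypes were normalized in separate tables, so levels are set side by side across genotypes without a test. In whole cultures, fewer cells of a type and less RNA per cell cannot be told apart.

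Fibroblast markers were abundant, with Col1a1 at 477 and Vim at 1238 FPKM in untreated p53KO cells, but they moved with UV. Of 8 such markers, 3 rose and 5 fell in p53KO cells, and 3 rose and 4 fell in p53CryKO cells. The summed FPKM of 4 epithelial markers went from 0.276 to 0.325 in p53KO cells and from 6.72 to 11.1 in p53CryKO cells. In p53CryKO cells Krt8 rose from 1.93 to 5.76 FPKM and Krt18 from 1.45 to 3.01 FPKM, while Cdh1 fell from 3.33 to 2.32 FPKM. The keratinocyte marker Krt14 was listed at 0.0287 and 0.0367 FPKM in p53KO cells and at 4.95 and 8.97 FPKM in p53CryKO cells. Of the other keratinocyte markers, Trp63 went the other way between genotypes, with 1.20 and 0.652 FPKM in p53KO and 0.0360 and 0.0177 FPKM in p53CryKO cells, and Krt5 was below 0.01 FPKM in every group. Of 4 leukocyte markers, Cd68 rose from 2.41 to 12.5 FPKM in p53KO cells and from 2.82 to 11.3 FPKM in p53CryKO cells, while Adgre1 was listed at 0 throughout. Of 4 endothelial markers, only Kdr exceeded 0.1 FPKM, and it rose in p53KO cells. The part of these markers in the results was not tested. Whole-gene levels did not check the genotypes. Trp53 was at 78.8 and 95.0 FPKM (untreated and UV) in p53KO and 84.4 and 106 FPKM in p53CryKO cells, Cry1 at 3.85 and 4.55 and at 3.34 and 3.79 FPKM, and Cry2 at 2.44 and 0.488 and at 4.54 and 1.10 FPKM.

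The starts of the genes are shown first for the ATF4-type motif TGATGNAA, because several cytosolic synthetase genes are known targets of that factor. RefSeq promoters on GRCm38.p6, from 250 bases before to 50 bases after each start, were matched for 26 of the 35 genes, 13 cytosolic and 13 mitochondrial, with Mars found as Mars1. There was no entry for Cars, Hars, Lars, Nars, Rars, Vars, Wars, Hars2 and Pars2. On either strand, the motif was found in 5 of the 13 cytosolic promoters and in 0 of the 13 mitochondrial ones, against 3.97% of all 32851 promoters. The 60 bases around each match are given 5′ to 3′ on the gene's strand, with the match in capitals. Aars held 2 matches.
Aars (chr8:111033704-111033763, plus strand): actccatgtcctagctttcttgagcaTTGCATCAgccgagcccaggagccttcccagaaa
Aars (chr8:111033825-111033884, plus strand): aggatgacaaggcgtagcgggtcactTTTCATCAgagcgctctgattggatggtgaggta
Gars (chr6:55037945-55038004, plus strand): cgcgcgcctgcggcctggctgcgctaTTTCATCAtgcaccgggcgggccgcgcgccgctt
Iars (chr13:49682111-49682170, plus strand): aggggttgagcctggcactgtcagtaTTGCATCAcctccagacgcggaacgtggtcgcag
Tars (chr15:11399640-11399699, minus strand): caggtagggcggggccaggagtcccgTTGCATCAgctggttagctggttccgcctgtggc
Yars (chr4:129189880-129189939, plus strand): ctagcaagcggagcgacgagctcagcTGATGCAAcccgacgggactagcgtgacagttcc

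The E-box CACGTG, which reads the same on both strands, was found in 4 cytosolic promoters (Aars, Farsb, Iars and Tars) and 1 mitochondrial promoter (Ears2), against 7.15% of all promoters. The cyclic AMP response element TGACGTCA was found in none of the 26, against 1.79% of all promoters. No match of one motif overlapped a match of another. Farsb and Dars, which had the highest log2 fold changes among the genes with a promoter entry, are shown whole together with Mars2, the mitochondrial gene with an entry that fell most. Capitals mark the E-box, and Dars and Mars2 held none of the motifs.
Farsb (chr1:78488848-78489147, minus strand): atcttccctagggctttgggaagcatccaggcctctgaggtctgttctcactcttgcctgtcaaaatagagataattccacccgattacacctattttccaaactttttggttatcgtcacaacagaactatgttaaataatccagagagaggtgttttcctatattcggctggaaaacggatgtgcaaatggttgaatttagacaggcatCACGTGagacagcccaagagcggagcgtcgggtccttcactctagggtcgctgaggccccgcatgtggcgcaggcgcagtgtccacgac
Dars (chr1:128417367-128417666, minus strand): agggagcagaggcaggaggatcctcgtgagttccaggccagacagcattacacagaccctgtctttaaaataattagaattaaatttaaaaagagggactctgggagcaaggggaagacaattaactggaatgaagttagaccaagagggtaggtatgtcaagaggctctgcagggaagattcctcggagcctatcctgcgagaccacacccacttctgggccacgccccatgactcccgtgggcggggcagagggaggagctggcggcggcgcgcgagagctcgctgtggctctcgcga
Mars2 (chr1:55236927-55237226, plus strand): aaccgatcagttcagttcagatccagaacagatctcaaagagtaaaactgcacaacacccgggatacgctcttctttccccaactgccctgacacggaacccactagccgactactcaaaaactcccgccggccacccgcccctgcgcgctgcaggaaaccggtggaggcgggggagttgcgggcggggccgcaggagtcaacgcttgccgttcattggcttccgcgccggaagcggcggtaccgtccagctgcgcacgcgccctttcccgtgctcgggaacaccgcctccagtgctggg

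After UV, cytosolic synthetase messages were more often higher than lower, and mitochondrial ones were not. In p53KO cells 11 of the 20 cytosolic genes rose and 3 fell, where 23.9% of all tested genes were called higher and 26.9% lower. In p53CryKO cells 9 rose and 3 fell, where 25.1% of all tested genes were called higher and 27.2% lower. All 20 cytosolic genes were at 17.4 FPKM or more in every group. Among tested genes with FPKM of 1 or more, 29.0% rose and 31.7% fell (p53KO), or 30.6% and 32.0% (p53CryKO). At FPKM of 5 or more, 2958 genes rose and 2605 fell (p53KO), or 3064 and 2392 (p53CryKO). Genes that reached 5 FPKM thus also leaned to higher calls, though less than the cytosolic set. No counts were made for all genes at 17.4 FPKM or more in every group, so the set was not compared with genes of its own level. The same 9 genes rose in both genotypes (Dars, Eprs, Farsb, Kars, Lars, Nars, Rars, Tars and Vars), and the same 3 fell in both (Cars, Iars and Qars). The cytosolic set had a median change on the log2 scale of 0.61 in p53KO and 0.39 in p53CryKO cells, against 0.05 in both for all tested genes with FPKM of 1 or more.

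Of the 15 mitochondrial genes, 0 rose and 6 fell in p53KO cells by the authors' Cuffdiff test, and 3 rose and 3 fell in p53CryKO cells. The 6 that fell were 40% of the set, where 26.9% of all tested p53KO genes fell and 23.9% rose. Each p53CryKO count was 20% of the set, below the 25.1% of all tested genes that rose there and the 27.2% that fell. At an unadjusted p under 0.05 in the authors' deposited table, 1 of the 15, Sars2, was higher in p53KO cells. Mars2, Pars2 and Wars2 fell in both genotypes. The mitochondrial median on the log2 scale was -0.62 in p53KO and -0.03 in p53CryKO cells.

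These directions are relative to the authors' scaling, under which the summed FPKM of all tested genes with FPKM of 1 or more rose 2.12-fold in p53KO and 2.14-fold in p53CryKO cells. The summed FPKM of the cytosolic synthetases rose less, from 1544 to 2429 (1.57-fold) in p53KO cells and in p53CryKO cells from 1534 to 2240 (1.46-fold). That of the mitochondrial synthetases went from 139.9 to 128.6 in p53KO cells and in p53CryKO cells from 121.0 to 137.7. If the summed coding FPKM is held equal, every log2 fold change falls by 1.01 in p53KO and 1.02 in p53CryKO cells, and 4 cytosolic genes then rose and 9 fell in p53KO cells, and 0 rose and 12 fell in p53CryKO cells. Lars, Dars, Nars and Farsb are those that rose under either scaling in p53KO cells. At equal summed coding FPKM, 1074 of all tested genes rose and 7941 fell in p53KO cells, and 971 and 8486 did in p53CryKO cells. The authors tested 15857 genes in p53KO and 15872 in p53CryKO cells. Ratios between synthetases within a group, given below, do not depend on the scaling.

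**Figure D1:**
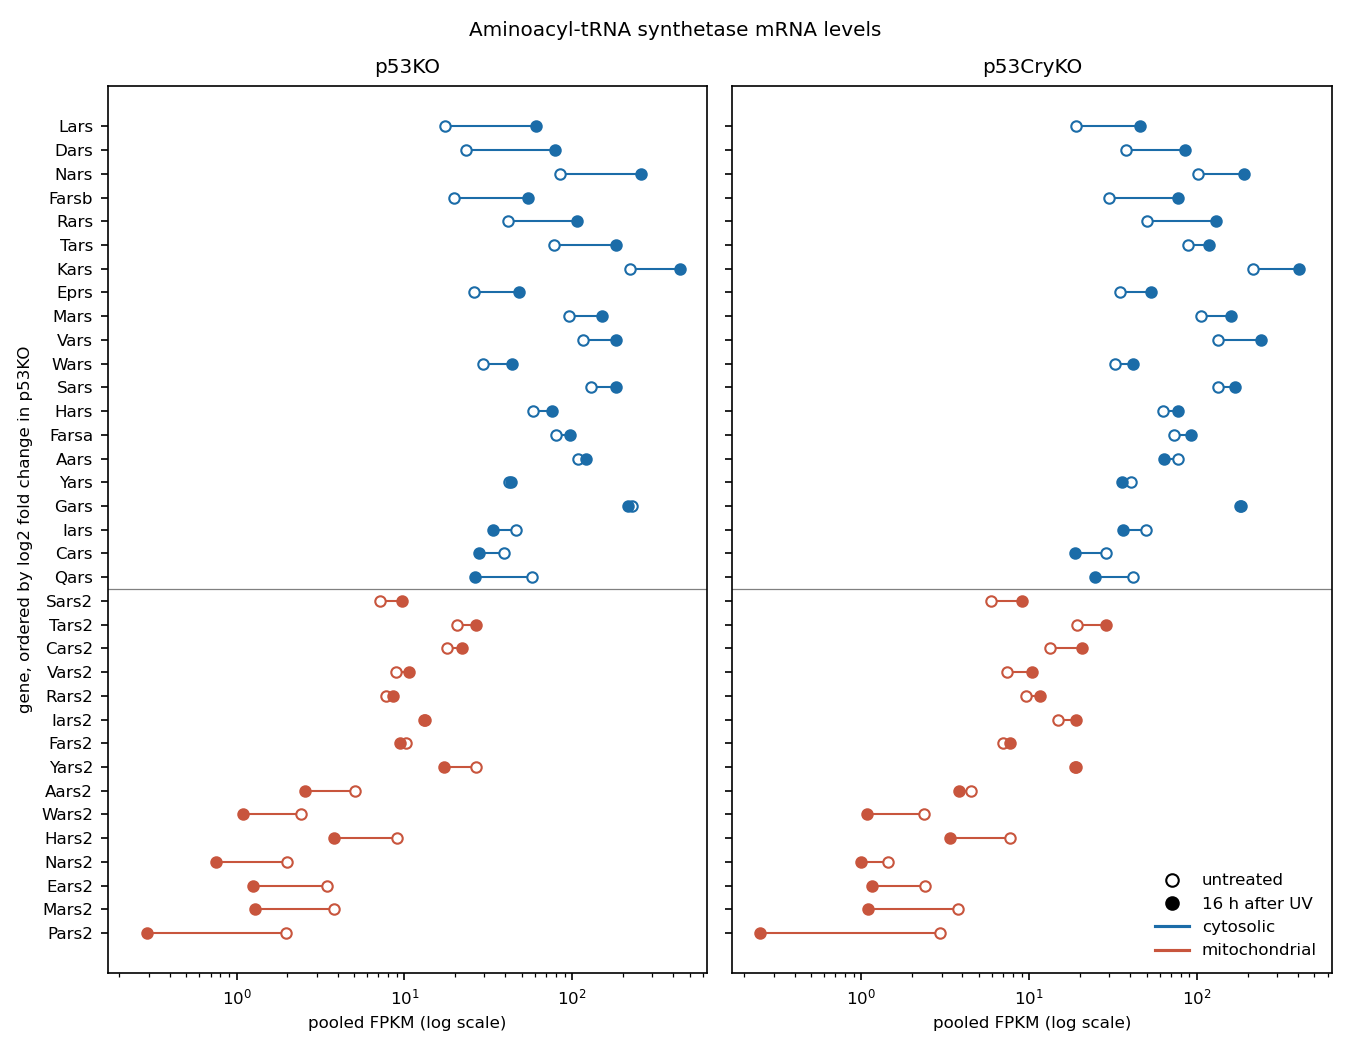
Pooled FPKM of each synthetase gene on a log axis, untreated (open) and 16 h after UV (filled), in p53KO (left) and p53CryKO cells (right), without error bars because replicates were pooled. Cytosolic genes (blue) range from 17.4 to 228 FPKM in untreated p53KO cells and mitochondrial genes (red) from 1.97 to 26.5 FPKM, and Lars and Pars2 mark the ends of the response in p53KO cells.

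**Figure D2:**
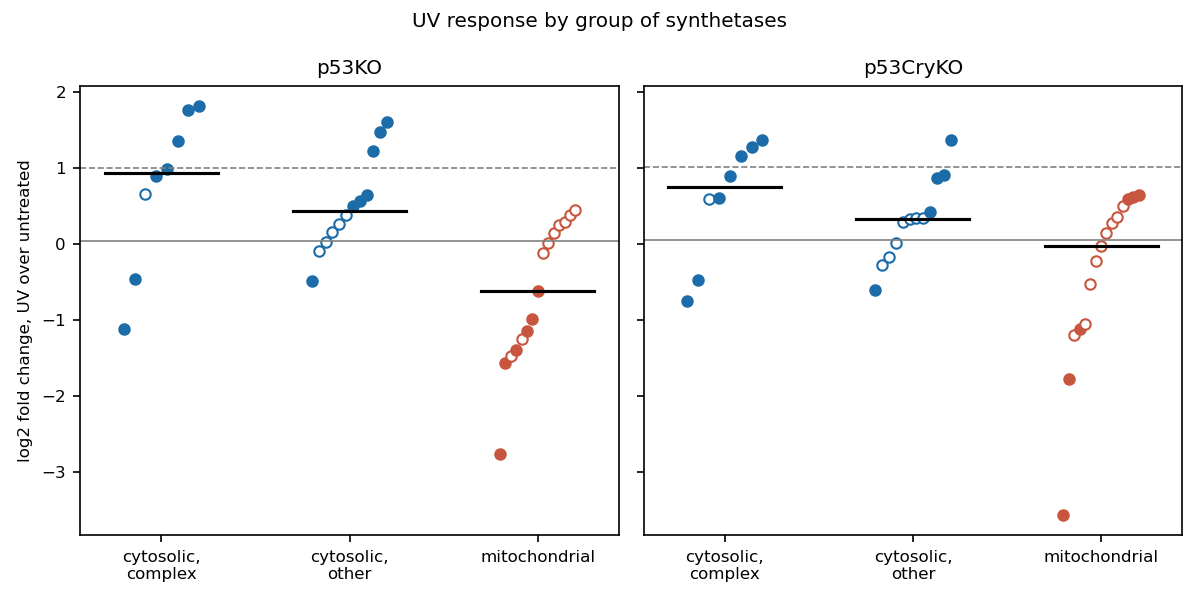
Log2 fold change of each gene (points, filled where called at q of 0.05 or less) and the group median (black bar) for cytosolic enzymes of the complex, other cytosolic enzymes and mitochondrial enzymes. The grey solid line is the median of all tested genes with FPKM of 1 or more and the dashed line is the value that corresponds to no change at equal summed coding FPKM. Of the 20 cytosolic genes, 6 lie above the dashed line in p53KO and 4 in p53CryKO cells, and of the 15 mitochondrial genes 0 do in either. Among all tested genes with FPKM of 1 or more, 2650 of 11951 lie above it in p53KO and 2362 of 11783 in p53CryKO cells.

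Among the 8 enzymes of the multi-synthetase complex, 5 rose and 2 fell in both genotypes, and Mars was not called. Lars, the leucyl enzyme, which also serves as a leucine sensor for mTORC1, went from 17.4 to 61.2 FPKM in p53KO cells and in p53CryKO cells from 19.0 to 46.0 FPKM. Its log2 fold changes were 1.81 (implied standard error 0.28) and 1.27 (0.25), and it was the lowest cytosolic message before UV in both. Dars, the aspartyl enzyme, went from 23.4 to 79.4 FPKM and from 37.6 to 84.3 FPKM, with log2 fold changes of 1.77 (0.28) and 1.17 (0.24).

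Rars, the arginyl enzyme, moved by nearly the same amount in both genotypes. It went from 41.4 to 106 FPKM in p53KO cells and in p53CryKO cells from 50.2 to 130 FPKM, with log2 fold changes of 1.36 (0.28) and 1.38 (0.25). Kars, the lysyl enzyme of both compartments, was the most abundant of the 35 messages after UV. It went from 221 to 438 FPKM in p53KO cells and in p53CryKO cells from 216 to 403 FPKM. Its log2 fold changes were 0.99 (0.30) and 0.90 (0.25). Eprs, the fused glutamyl and prolyl enzyme, went from 26.0 to 48.4 FPKM and from 34.9 to 52.9 FPKM, with log2 fold changes of 0.90 (0.28) and 0.60 (0.24).

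Qars, the glutaminyl enzyme, went against these members of the complex. It fell from 57.5 to 26.5 FPKM in p53KO cells and in p53CryKO cells from 41.8 to 24.8 FPKM, with log2 fold changes of -1.12 (0.40) and -0.75 (0.35). Iars, the isoleucyl enzyme, fell from 46.4 to 33.8 FPKM and from 49.8 to 36.0 FPKM, with log2 fold changes of -0.45 (0.31) and -0.47 (0.25). The ratio of Lars to Qars was 0.303 before and 2.31 after UV in p53KO cells, while in p53CryKO cells it was 0.455 and 1.86, so the order of these partners was turned over in both. Mars, the methionyl enzyme, went from 95.1 to 151 FPKM and from 106 to 160 FPKM without a call, with errors of 0.51 and 0.39 on the log2 scale that were wider than those of the other enzymes of the complex.

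The scaffold proteins of the complex were led by Aimp1, which went from 46.2 to 234 FPKM in p53KO cells and in p53CryKO cells from 75.4 to 226 FPKM, with log2 fold changes of 2.34 (0.28) and 1.59 (0.24). Eef1e1, which encodes AIMP3, rose from 57.9 to 85.1 FPKM in p53KO cells and stood at 68.5 and 68.7 FPKM in p53CryKO cells. Aimp2 was not called, at 93.0 and 118 FPKM in p53KO and 85.1 and 104 FPKM in p53CryKO cells.

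Among the 12 cytosolic genes outside the complex, 6 rose and 1 fell in p53KO cells, and 4 rose and 1 fell in p53CryKO cells. Nars, the asparaginyl enzyme, went from 84.9 to 259 FPKM in p53KO cells and in p53CryKO cells from 101 to 189 FPKM, with log2 fold changes of 1.61 (0.29) and 0.91 (0.25). Tars, the threonyl enzyme, went from 78.2 to 182 FPKM and from 87.7 to 118 FPKM, with log2 fold changes of 1.22 (0.29) and 0.43 (0.24). Vars, the valyl enzyme, rose to a similar degree in both, from 117 to 183 FPKM and from 133 to 241 FPKM, with log2 fold changes of 0.65 (0.42) and 0.86 (0.36).

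The cytosolic phenylalanyl enzyme is built from α subunits (Farsa) and β subunits (Farsb), and their messages moved unequally. Farsb went from 19.6 to 54.8 FPKM in p53KO cells and in p53CryKO cells from 29.8 to 76.9 FPKM, with log2 fold changes of 1.48 (0.28) and 1.37 (0.25). Farsa was not called, at 80.5 and 96.9 FPKM in p53KO and 72.8 and 91.5 FPKM in p53CryKO cells. The ratio of Farsb to Farsa was 0.244 before and 0.566 after UV in p53KO cells, while in p53CryKO cells it was 0.410 and 0.840, closer to equal after UV in both.

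Sars, the seryl enzyme, and Wars, the tryptophanyl enzyme, were called in p53KO cells, where Sars went from 129 to 182 and Wars from 29.4 to 43.6 FPKM. In p53CryKO cells neither was called, with Sars at 133 and 168 and Wars at 32.4 and 41.3 FPKM. Cars, the cysteinyl enzyme, fell in both genotypes, from 39.3 to 28.0 FPKM with a log2 fold change of -0.49 (0.30) and from 28.7 to 18.8 FPKM with a log2 fold change of -0.61 (0.26).

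Gars, the glycyl enzyme of both compartments, was not called and was the most abundant synthetase message of untreated p53KO cells, at 228 and 214 FPKM, with 181 and 182 FPKM in p53CryKO cells. Aars, the alanyl enzyme, was not called at 109 and 121 FPKM in p53KO and 76.9 and 63.4 FPKM in p53CryKO cells, with a log2 fold change of -0.28 (0.27) in the latter. Yars, the tyrosyl enzyme, was not called at 42.1 and 43.0 FPKM and at 40.3 and 35.9 FPKM. Hars, the histidyl enzyme, was not called at 58.6 and 76.2 FPKM and at 62.7 and 76.8 FPKM.

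Counted by class, 6 of the 10 cytosolic class II genes rose and 0 fell in p53KO cells, and 5 rose and 0 fell in p53CryKO cells, by the authors' Cuffdiff test. At an unadjusted p under 0.05 in the authors' deposited table, 0 of them were lower in either genotype. Of the 9 cytosolic class I genes, 4 rose and 3 fell in p53KO cells, and 3 rose and 3 fell in p53CryKO cells. All of the cytosolic genes that fell, Cars, Iars and Qars, were thus of class I. They made up 33.3% of the class I genes, near the 26.9% and 27.2% of all tested genes called lower in p53KO and p53CryKO cells. The shares of all tested genes called higher were 23.9% and 25.1%. Eprs, which joins an enzyme of each class, was counted in neither, and at equal summed coding FPKM class II genes fell as well (Farsa, Gars, Aars, Hars and Sars in both genotypes).

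The mitochondrial gene that fell most was Pars2, the prolyl enzyme, a gene of 2 exons at chr4:106651069-106655282 of GRCm38. It went from 1.97 to 0.290 FPKM in p53KO cells and in p53CryKO cells from 2.93 to 0.248 FPKM, with log2 fold changes of -2.77 (0.65) and -3.57 (0.66). Mars2, the methionyl enzyme, with a single exon on chromosome 1, went from 3.78 to 1.28 FPKM and from 3.76 to 1.09 FPKM, with log2 fold changes of -1.56 (0.33) and -1.78 (0.31). Wars2, the tryptophanyl enzyme, went from 2.43 to 1.10 FPKM and from 2.37 to 1.09 FPKM, with log2 fold changes of -1.15 (0.53) and -1.12 (0.34).

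Nars2, Aars2 and Yars2 fell in p53KO cells and were not called in p53CryKO cells. Nars2 (asparaginyl) went from 1.99 to 0.755 FPKM in p53KO cells, a log2 fold change of -1.40 (0.48), and was at 1.43 and 0.994 FPKM in p53CryKO cells, a log2 fold change of -0.52 (0.51). Aars2 (alanyl) went from 5.06 to 2.55 FPKM in p53KO cells, a log2 fold change of -0.99 (0.30), and was at 4.48 and 3.83 FPKM in p53CryKO cells, a log2 fold change of -0.23 (0.27). Yars2 (tyrosyl) went from 26.5 to 17.3 FPKM in p53KO cells and was at 19.0 and 18.6 FPKM in p53CryKO cells.

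Sars2, Tars2 and Cars2 rose in p53CryKO cells and were not called in p53KO cells. Sars2 (seryl) went from 5.89 to 9.08 FPKM in p53CryKO cells and was at 7.16 and 9.73 FPKM in p53KO cells, with log2 fold changes of 0.62 (0.27) and 0.44 (0.29). Tars2 (threonyl) went from 19.1 to 28.8 FPKM in p53CryKO cells and was at 20.5 and 26.7 FPKM in p53KO cells, with log2 fold changes of 0.59 (0.25) and 0.38 (0.28). Cars2 (cysteinyl) went from 13.2 to 20.7 FPKM in p53CryKO cells and was at 17.9 and 22.0 FPKM in p53KO cells, with log2 fold changes of 0.65 (0.39) and 0.29 (0.50). The remaining mitochondrial genes were not called in either genotype.

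Of these, Iars2, Rars2, Vars2 and Fars2 had log2 fold changes between -0.12 and 0.50 in the 2 genotypes. Ears2 (glutamyl) was at 3.45 and 1.25 FPKM in p53KO and 2.39 and 1.15 FPKM in p53CryKO cells, with log2 fold changes of -1.47 (1.07) and -1.05 (0.88). Hars2 (histidyl) was at 9.07 and 3.81 FPKM and at 7.72 and 3.38 FPKM, with log2 fold changes of -1.25 (1.34) and -1.19 (1.19). Their errors were the widest of the 35 genes.

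The mitochondrial genes that fell were mostly of low level. Of the 6 that fell in p53KO cells, Mars2, Pars2, Wars2 and Nars2 were under 5 FPKM in both p53KO groups. Among the 10 mitochondrial genes that reached 5 FPKM in a p53KO group, the median log2 fold change was 0.08, and the corresponding median in p53CryKO cells was 0.36.

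Mitochondria lack a glutaminyl enzyme of their own, and their glutamine tRNA is first charged with glutamate by EARS2 and then amidated by the complex of the Qrsl1, Gatb and Gatc products. Gatc fell from 16.7 to 5.04 FPKM in p53KO cells and in p53CryKO cells from 16.7 to 10.3 FPKM, with log2 fold changes of -1.73 (0.30) and -0.70 (0.26). Qrsl1 fell from 7.69 to 3.41 FPKM and from 7.47 to 4.04 FPKM, with log2 fold changes of -1.17 (0.32) and -0.89 (0.30). Gatb was not called, at 4.02 and 4.76 FPKM in p53KO and 2.93 and 5.20 FPKM in p53CryKO cells. Mtfmt, which formylates the methionyl tRNA that MARS2 charges, fell from 7.73 to 4.08 FPKM and from 8.20 to 2.85 FPKM, so that the messages for both steps fell in both genotypes.

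The ratio of the cytosolic to the mitochondrial enzyme for the same amino acid was compared over 16 pairs, in which Eprs, and also Fars2, entered 2 pairs each. The ratio was higher after UV in 14 of the 16 pairs in p53KO cells, with a median change of 2.26-fold, and in 10 of the 16 in p53CryKO cells, with a median change of 1.71-fold. No test was made of these ratios, since each group has 1 pooled value. Eprs to Pars2 went from 13.2 to 167 in p53KO cells and in p53CryKO cells from 11.9 to 214. Nars to Nars2 went from 42.6 to 342 in p53KO cells and in p53CryKO cells from 70.5 to 190. Both ratios rest on low denominators after UV, with Pars2 at 0.290 and 0.248 FPKM and Nars2 at 0.755 and 0.994 FPKM in p53KO and p53CryKO cells. With a pseudocount of 1, the log2 fold changes of Pars2 shrank to -1.20 in p53KO and -1.66 in p53CryKO cells.

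Mars to Mars2 went from 25.1 to 118 in p53KO cells and in p53CryKO cells from 28.3 to 146. Cars to Cars2 went the other way, from 2.20 to 1.27 and from 2.17 to 0.909, so that the mitochondrial message was the more abundant per length in irradiated p53CryKO cells. Iars to Iars2 also fell, from 3.55 to 2.56 and from 3.36 to 1.89. Aars to Aars2, Tars to Tars2, Yars to Yars2 and Sars to Sars2 were higher after UV in p53KO cells and lower in p53CryKO cells.

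**Figure D3:**
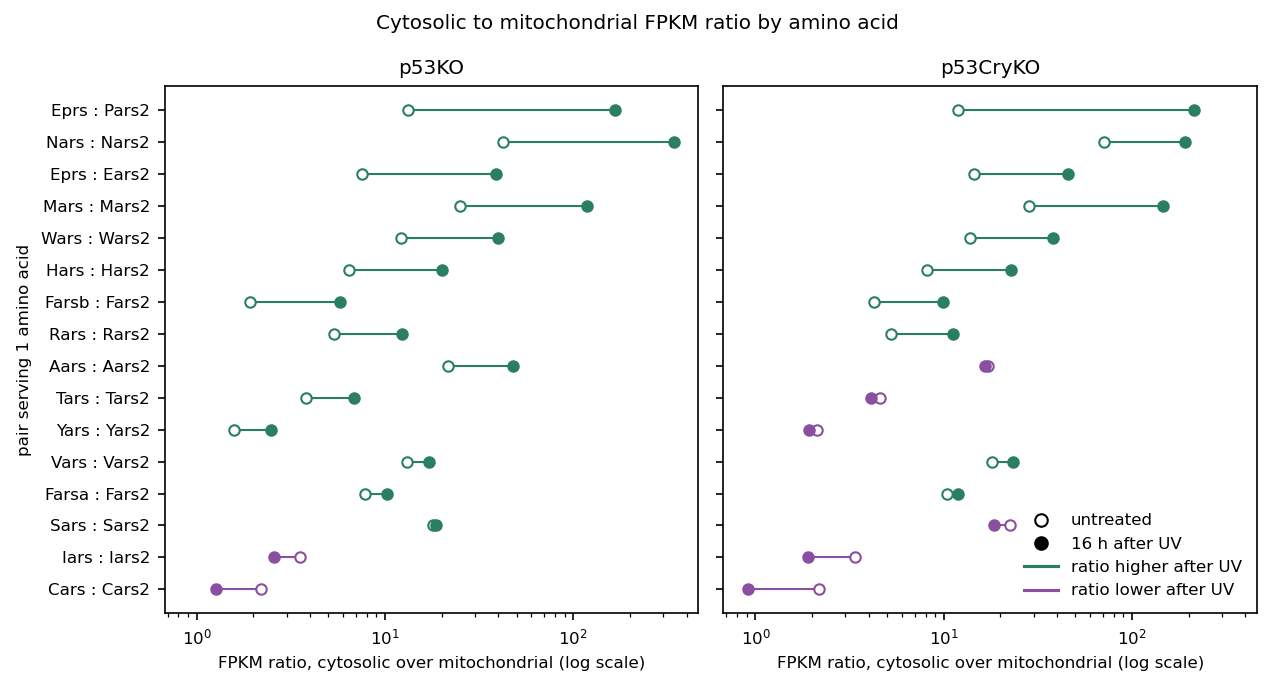
FPKM ratio of the cytosolic to the mitochondrial enzyme for each amino acid on a log axis, untreated (open) and after UV (filled), in p53KO (left) and p53CryKO cells (right), without error bars because each group has 1 pooled value. The ratio rose in 14 of 16 pairs in p53KO cells and in 10 of 16 in p53CryKO cells. It rose most for Eprs to Pars2, where Pars2 was at only 0.290 and 0.248 FPKM after UV. It fell in both for Cars to Cars2 and Iars to Iars2.

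The question of whether loss of the cryptochromes alters the UV response was addressed by the difference of the log2 fold changes, p53CryKO minus p53KO, divided by its implied standard error and read as a normal score. After adjustment over 12300 genes by the Benjamini-Hochberg method, 0 of the 35 synthetases were called, where 0.179% of all genes were. At an unadjusted p under 0.05 the only synthetase was Tars, with a difference of -0.79 (standard error 0.38) and a p of 0.0361 that was 1.00 after adjustment. With errors taken from the authors' p instead, 0 were called and 3 passed the unadjusted threshold (Aars2, Tars and Yars2). Over all 12300 genes, 3.03% passed that unadjusted threshold with the implied errors and 5.24% with errors from the authors' p. The smallest adjusted p of a synthetase ranged from 0.579 to 1.00 over the settings tried. The other members with the largest differences were Nars2 at 0.88 (0.70), Pars2 at -0.80 (0.93), Aars2 at 0.76 (0.41) and Nars at -0.70 (0.38).

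On simulated data for this comparison, 3.50% of genes with a log2 difference of 1 were recovered, 63.5% at 2 and 82.0% at 3. The simulated noise was drawn at the implied standard errors, which are wide, so these shares hold for errors of that size. With such errors, differences of the size seen among the synthetases were mostly below what the test can call. In sign, the log2 fold change was lower in p53CryKO than in p53KO cells for 15 of the 20 cytosolic genes (median difference -0.12) and higher for 13 of the 15 mitochondrial genes (median 0.24). Over all 12300 genes it was lower for 6574 and higher for 5726, with a median of -0.03. The log2 fold change had the same sign in both genotypes for 31 of the 35 genes, the exceptions being Aars, Fars2, Gars and Yars. None was called in opposite directions. Across the 35 genes, which are not independent replicates, the log2 fold changes of the genotypes had a Pearson r of 0.93 and a Spearman rho of 0.93, beside 0.92 and 0.93 across all 12300 genes.

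**Figure D4:**
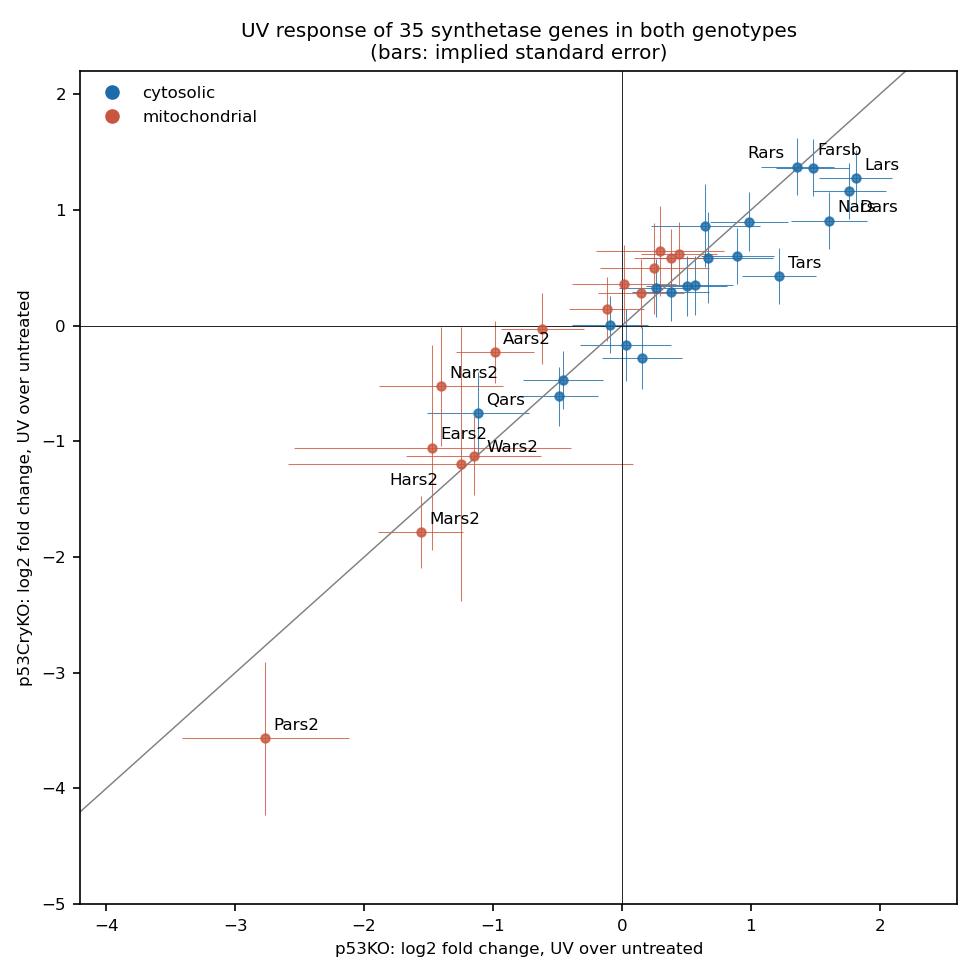
Log2 fold change of each synthetase gene in p53KO (horizontal) against p53CryKO cells (vertical), with bars of 1 implied standard error and a grey line of equality. Most cytosolic genes (blue) lie below the line and most mitochondrial genes (red) above it, and Tars, at 1.22 and 0.43, is the gene with an unadjusted p under 0.05.

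The promoters shown above were set beside the responses without a test. The 5 cytosolic genes with the ATF4-type motif had medians of 0.03 in p53KO and -0.17 in p53CryKO cells on the log2 scale, with 1 higher (Tars) and 1 lower (Iars) in each. The 8 matched cytosolic genes without it had medians of 0.78 and 0.60, with 5 higher and 1 lower in p53KO cells and 4 higher and 1 lower in p53CryKO cells. Cars, Hars, Lars, Nars, Rars, Vars and Wars had no promoter entry and could change either median. Of these, Lars, Nars, Rars and Vars rose in both genotypes, Wars rose in p53KO cells only, Cars fell in both and Hars was not called. The message of Atf4 itself fell from 268 to 168 FPKM in p53KO cells and in p53CryKO cells from 274 to 147 FPKM, with log2 fold changes of -0.68 (0.29) and -0.90 (0.25).

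Of 18 ATF4 and amino acid genes, 10 rose and 4 fell in p53KO cells, and 9 rose and 5 fell in p53CryKO cells, with medians of 0.66 and 0.39. The shares over all tested genes were 23.9% higher and 26.9% lower in the former and 25.1% and 27.2% in the latter, so the falls lay near the background. Sesn2, a stress-induced inhibitor of mTORC1, fell with log2 fold changes of -1.69 (0.34) and -2.54 (0.36). Slc7a1, a transporter of cationic amino acids, fell with log2 fold changes of -1.43 (0.28) and -1.95 (0.25). Mthfd2, a mitochondrial folate enzyme, rose by 1.55 (0.30) and 0.87 (0.26), and these 3 had the largest mean log2 fold changes over the genotypes in size. In p53CryKO cells alone, Pycr1, an enzyme of proline synthesis, rose more than Mthfd2, by 1.03 (0.28).

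Genes that make and process tRNA were also counted, against the same shares over all tested genes (23.9% higher and 26.9% lower in p53KO, 25.1% and 27.2% in p53CryKO cells). Of 21 genes of RNA polymerase III and its factors, which transcribe tRNA genes, 3 rose and 9 fell in p53KO cells, and 3 rose and 8 fell in p53CryKO cells. By the mean over the genotypes, the largest changes among them were falls of the subunit gene Polr3d, from 22.9 to 6.39 FPKM and from 23.4 to 4.28 FPKM, and of the TFIIIC genes Gtf3c4 and Gtf3c2, with log2 fold changes between -1.69 and -2.11. Another TFIIIC gene, Gtf3c6, rose with log2 fold changes of 1.78 and 1.66. Of 20 genes of tRNA maturation and export, 9 rose and 3 fell in p53KO cells, and 7 rose and 3 fell in p53CryKO cells.

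In that list Trnt1, which adds the CCA end that synthetases charge, rose from 12.8 to 44.0 FPKM and from 13.9 to 30.9 FPKM, with log2 fold changes of 1.78 (0.33) and 1.15 (0.31). Rpp21, a subunit of RNase P, and Ssb, the La protein that binds new tRNA transcripts, rose with log2 fold changes between 1.16 and 1.43. Of 7 genes of proofreading and selenocysteine charging, 3 rose and 1 fell in both genotypes. Dtd1, which removes D-amino acids from tRNA, rose by 1.04 (0.32) and 1.31 (0.28), and Prorsd1, a relative of bacterial prolyl-tRNA editing domains, by 1.85 (0.33) and 0.53 (0.30), while Sepsecs, the last enzyme of selenocysteinyl-tRNA synthesis, fell with log2 fold changes of -0.96 (0.38) and -0.89 (0.35).

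The genes Lars2 and Tarsl2 lie outside the list of 36 names and are given as values. Lars2, the mitochondrial leucyl gene, was at 23.7 and 612 FPKM in p53KO and at 23.2 and 449 FPKM in p53CryKO cells, larger than any change among the 35. The mitochondrial ribosomal RNAs mt-Rnr1 and mt-Rnr2 moved with it, with log2 fold changes of 7.31 and 5.29 in p53KO and 6.70 and 4.30 in p53CryKO cells, and their part in the Lars2 value was not tested. Tarsl2, a paralog of the threonyl enzyme, rose from 3.19 to 5.31 FPKM in p53KO cells and was not called at 3.68 and 4.84 FPKM in p53CryKO cells.

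Transcript features that the choice of genes did not use were taken from GENCODE M21 on GRCm38, for the longest transcript of each gene, and 4 features were looked at. Across the 20 cytosolic genes, which are not independent replicates, GC content and log2 fold change had a Spearman rho of -0.59 in p53KO and -0.54 in p53CryKO cells. Across all tested protein-coding genes the values were -0.04 and 0.01, and across the 15 mitochondrial genes 0.35 and 0.38. Dars, with 41.2% GC, was the cytosolic gene of lowest GC content and rose, and Vars, with 60.9%, was that of highest GC content and rose as well, so the cytosolic order had exceptions. Of the 4 features, transcript length had the strongest relation over all tested coding genes, with a rho of -0.36 in p53KO and -0.42 in p53CryKO cells. Its rho was -0.36 and -0.37 across the mitochondrial and -0.16 and -0.26 across the cytosolic genes. For genomic span, rho was -0.19 and -0.22 over all coding genes, 0.25 and 0.25 cytosolic, and 0.20 and 0.27 mitochondrial.

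The mitochondrial genes with the fewest exons, Mars2 and Pars2, were also those that fell most. The rho between exon number and log2 fold change was 0.60 and 0.63 across the 15 mitochondrial genes, -0.06 and -0.08 across the 20 cytosolic genes, and -0.02 in both genotypes across all tested coding genes. Nars2 with 14 exons and Aars2 with 22 fell in p53KO cells as well, so the mitochondrial order had exceptions. All tested coding genes of 2 exons, as Pars2 has, had medians of -0.71 in p53KO and -0.94 in p53CryKO cells on the log2 scale. Those of 1 exon, as Mars2 has, had medians of 0.05 and -0.29. The Mars2 model of GENCODE M21 spans 11.3 kb and that of the authors' deposited table covers 2.88 kb, so its GC content may be that of another transcript end.

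**Figure D5:**
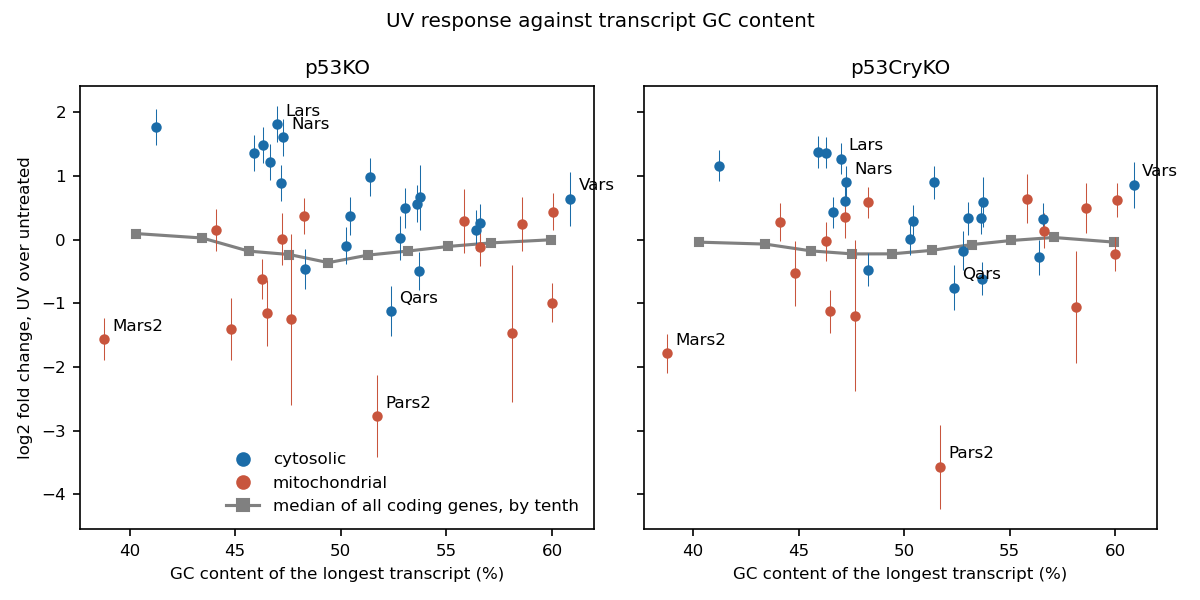
Log2 fold change with 1 implied standard error against the GC content of the longest transcript for cytosolic (blue) and mitochondrial genes (red) in p53KO (left) and p53CryKO cells (right). Grey squares are medians of all tested protein-coding genes in 10 bins of GC content, between -0.36 and 0.10 in p53KO and between -0.22 and 0.04 in p53CryKO cells, while the cytosolic genes of lower GC content lie mostly above those of higher GC content (rho of -0.59 and -0.54).

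Some members share sequence or a locus with another gene, and no source used here says whether the authors counted by strand. The Aars transcripts share 22.4% of their 50-base words with Exosc6, an overlapping gene on the same strand. Iars2 shares 36.6% with Rab3gap2, Cars2 shares 17.8% with Naxd and Farsb shares 10.1% with Sgpp2, all on the opposite strand. Naxd rose from 38.0 to 93.5 FPKM and from 23.3 to 51.8 FPKM, whereas Sgpp2 was below 0.1 FPKM in every group.

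Iars shares 8.61% of its words with Gm4849, and Hars and Hars2, whose starts face each other 197 bases apart, share 7.53% and 4.44% of their words with each other. The part of these overlaps in the values was not tested. Messages from genes that start back to back did not all move together. Kars starts 75 bases from Terf2ip, a telomere protein gene that fell with log2 fold changes of -0.48 and -0.90 while Kars rose. Yars starts 33 bases from S100pbp, which fell with log2 fold changes of -2.66 and -2.50 while Yars was not called. Rars2 starts 13 bases from Orc3, a subunit of the origin recognition complex, which rose by 1.26 and 0.84 while Rars2 was not called, and Sars2 starts 172 bases from Mrps12, which rose by 0.53 and 0.50.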

How the data were processed

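Poly(A) RNA from 4 groups with 2 biological replicates, 8 samples in all, was sequenced as paired ends from TruSeq libraries, per the labels' protocols. Per the submitters' processing notes, STAR 2.5.2, Trimmomatic 0.35, FastQC 0.11.5, Cuffdiff and Cufflinks (the last 2 with no version) were used on GRCm38; the sources used here do not give options or the strand setting. The authors deposited, per the file headers, a Cuffdiff table for each genotype with FPKM values pooled over the replicates, a test statistic (a signed score), and a p-value and q-value per gene. Samples were grouped by their labels. Another deposited table, which repeats a subset of genes, was left out. Depth per sample is unknown. The p-values rest on the authors' Cuffdiff model with 2 replicates per group, which may not come from separate animals, and cover no spread beyond those replicates. The smallest p in the authors' deposited tables, 5e-05, was shared by 13 members in p53KO and 9 in p53CryKO cells, which it does not rank.

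Log2 fold changes were recomputed from the FPKM without a pseudocount and differed from the deposited numbers by at most 1.42e-05 and 5.04e-05. The standard error was the log2 fold change over the test statistic, without sign. Normal quantiles of the p-values were larger than that statistic, by a factor with a median of 1.44 in each genotype, so these errors are wide. The genotype difference was tested as described, over genes tested in both tables with FPKM of 1 or more in a group, and this test was tried on simulated data. Overlaps, exons and GC content came from GENCODE M21, which held 96.0% of the gene IDs. Python 3.11.15 with numpy 2.4.6, pandas 2.3.3, scipy 1.17.1 and matplotlib 3.10.9 was used.

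The members, the gene lists and the tests were chosen with earlier results of these data known. Full statistics were given to the 5 highest and 5 lowest log2 fold changes of each genotype and the 5 largest differences, and up to 3 called genes were named per list; other genes, among them Atf4, Krt8, Krt14, Cd68, Kdr and the neighbouring genes, were named after their values were seen. Other settings were thresholds, filters on FPKM, a pseudocount and other scalings. Proteins were not analysed here. A gene of the lists is not reported here.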

Additional observations from a re-analysis of the deposited data

How the results depend on the processing

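No paired analysis was possible because the deposited columns are pooled over replicates, and for the same reason no replicate could be left out. The equal-scaling alternatives decided most directions, and the cause was not tested. At equal summed coding FPKM, p53KO cells had 4 cytosolic genes higher and 9 lower (median -0.40), with 14 mitochondrial genes lower (median -1.62); p53CryKO cells had 0 cytosolic genes higher and 12 lower (median -0.63), with 0 mitochondrial genes higher and 12 lower (median -1.05). At equal total fragments, p53KO cells had 5 cytosolic genes higher and 7 lower (median -0.18), with 10 mitochondrial genes lower (median -1.40); p53CryKO cells had 4 cytosolic genes higher and 10 lower (median -0.40), with 0 mitochondrial genes higher and 10 lower (median -0.82). Over all tested genes, the higher and lower calls numbered 1074 and 7941 for p53KO and 971 and 8486 for p53CryKO at equal coding FPKM, 1483 and 6996 for p53KO and 1401 and 7404 for p53CryKO at equal fragments, and 3796 and 4269 for p53KO and 3984 and 4316 for p53CryKO with the authors' scaling.

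Signs turned as follows for genes called with the authors' scaling or with the alternative named. At equal coding FPKM in p53KO cells the log2 fold changes were Hars -0.63, Farsa -0.74, Vars -0.36, Wars -0.44, Eprs -0.11, Iars2 -0.99, Tars2 -0.63, Rars2 -0.86, Yars -0.98, Kars -0.021, Aars -0.85, Vars2 -0.76, Sars -0.50 and Sars2 -0.57. In p53CryKO cells they were Hars -0.73, Farsa -0.69, Vars -0.16, Wars -0.67, Fars2 -0.88, Tars -0.59, Nars -0.11, Eprs -0.42, Iars2 -0.66, Tars2 -0.43, Rars2 -0.74, Gars -1.01, Kars -0.12, Cars2 -0.37, Sars -0.68 and Sars2 -0.40. At equal total fragments they were, in p53KO cells, Farsa -0.51, Vars -0.14, Wars -0.22, Iars2 -0.77, Rars2 -0.63, Yars -0.75, Aars -0.63 and Sars -0.28, and, in p53CryKO cells, Hars -0.50, Farsa -0.46, Wars -0.44, Fars2 -0.65, Tars -0.36, Eprs -0.19, Tars2 -0.20, Rars2 -0.51, Gars -0.78, Cars2 -0.15, Sars -0.45 and Sars2 -0.17.

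With a minimum log2 change of 1, p53KO cells had 6 cytosolic calls higher and 1 lower, and p53CryKO cells had 4 higher and 0 lower, with 0 mitochondrial genes higher; here the higher bar itself removes calls. At a q of 0.01, 1 cytosolic gene was lower in p53KO cells. At FPKM of 5 or more, where fewer genes remain, the mitochondrial set had 1 gene higher and 2 lower in p53KO cells (median 0.0833) and 0 lower in p53CryKO cells (median 0.36). Centring on the median and the pseudocount of 1 left these counts within 1.5 times, but centring ended the calls of Sars (0.46) and Vars (0.60) in p53KO and of Tars (0.38) and Cars2 (0.59) in p53CryKO cells. A normal test with a rescaled error, chosen after seeing the data, lost the calls of Iars and Vars in p53KO cells. The genotype difference called 0 synthetases under each of the 6 settings run.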
